A study of Mus musculus with 8 samples.

Results

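The comparison is between RNA labelled as brain tumor and RNA labelled as naive brain tissue, both from mice dosed with MRX-2843, a small molecule that blocks the kinases MERTK and FLT3. It takes 4 of the 8 libraries of a mouse study of supratentorial ependymoma, chosen by the column names of the deposited count table: the 2 columns of that drug named RELA Tumor and the 2 named Naive RELA. All 55414 genes of the table were considered, and 24356 passed the filter on low counts. All 8 libraries carry the genotype ZFTA-RELAfusion in the labels, the naive brain included, and all give the name of the drug as cell line, the vehicle libraries included. Mice whose tumors had been seen by MRI received 50 mg/kg MRX-2843 or vehicle, as randomised, by daily oral gavage over 5 days, and were killed 1 h after the final dosing. The other 4 libraries, 2 of vehicle naive brain and 2 of vehicle tumor, served to share the estimate of spread and as side values. The age and strain of the mice, the brain region taken as naive tissue, and whether naive tissue came from tumor-bearing animals are not given in the sources used here. The number 909 stands in the column names of all 4 MRX-2843 libraries, 914 in 3 vehicle libraries and 915 in 1 vehicle naive library, with no meaning given. Libraries of a group are called duplicates, with no word on separate animals, so the p-values measure only the spread between these libraries, which may be technical.

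Supratentorial ependymomas arise in the cerebral hemispheres, and many carry a gene fusion that joins ZFTA to RELA, which encodes a subunit of the transcription factor NF-kB. MERTK belongs with AXL and TYRO3 to the TAM receptors, which bind GAS6 and protein S and act in the uptake of dying cells by microglia and macrophages, and FLT3 is a receptor of blood progenitors and dendritic cells. The adult brain tissue around such a tumor differs by region: hypothalamus makes peptide hormones, cortex and striatum hold distinct projection neurons, and the wall of the lateral ventricle keeps dividing neural stem cells, young neurons and ciliated ependymal cells.

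Library totals were 51150569 and 112938462 counts for MRX-2843 naive brain and 58668926 and 60745017 for MRX-2843 tumor, and 70147859 to 78084664 for the vehicle libraries. Levels are given as CPM, counts relative to the library total after TMM scaling, and 3 counts, the most that a count of 0 allows, is 0.0281 to 0.0615 CPM, for counting error only. Among genes with 1 to 20 counts in a library, 77.8 to 81.8% had an even count, so intervals and floors in counts may be too narrow. Xist, the RNA that coats an inactive X chromosome, ranged from 526 to 795 CPM across the 4 drug-treated libraries and from 0.408 to 2.88 with vehicle. The Y-linked Ddx3y had 0 counts with the drug and 2168 to 6717 with vehicle. Every value set against vehicle below carries this difference, which cannot be told apart from treatment. Some genes have exons that overlap those of another annotated gene, often a noncoding one on the other strand, so their counts are uncertain: Top2a, Prss12, Pmch, Irs4, Baiap3, Nefl, Penk, Six3, Prox1, Sox4, Slc1a2, Mobp, Olig1, Cx3cr1, Spp1, Cd9, Cd3e, Ube2c, Ccnd2, Irf7, H2-Q4, Col5a1, Flt3l, Notch1, Ccnd1, Fgfr2, Ddr1, Cxcl10, Hmgcs1, Idi1, Ndrg1, mt-Nd6, Zfta, L1cam, Xist, Fgf15, H19, Cd74, Gas6, Igf2 and mt-Nd2.

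The tumor label was checked first, with genes chosen in the 4 vehicle libraries alone. The 100 genes most raised in vehicle tumor against vehicle naive brain (log2 fold changes of 7.56 to 16.3) had a median level of 60.2 and 59.3 CPM in the vehicle tumor libraries. The same genes had medians of 0.246 and 0.202 CPM under the label MRX-2843 tumor, beside 0.215 and 0.150 in the naive tissue of that drug. Of the 100, 21 had no count in either library labelled MRX-2843 tumor, and 1 was nearer to vehicle tumor than to vehicle naive brain there on the log2 scale. Between the MRX-2843 groups 19 of these genes were called higher and 16 lower, with a median log2 fold change of 0.03. Of the 100, 20 had no count in either MRX-2843 naive library. Genes with no count in any of the 4 MRX-2843 libraries take a fold change of 0, which pulls this median toward 0. The 100 genes most lowered in vehicle tumor (median -5.90) stood at medians of 34.0 and 34.5 CPM under the label MRX-2843 tumor. Naive tissue of the same drug read 34.7 and 35.9, and vehicle tumor 0.613 and 0.686.

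**Figure D1:**
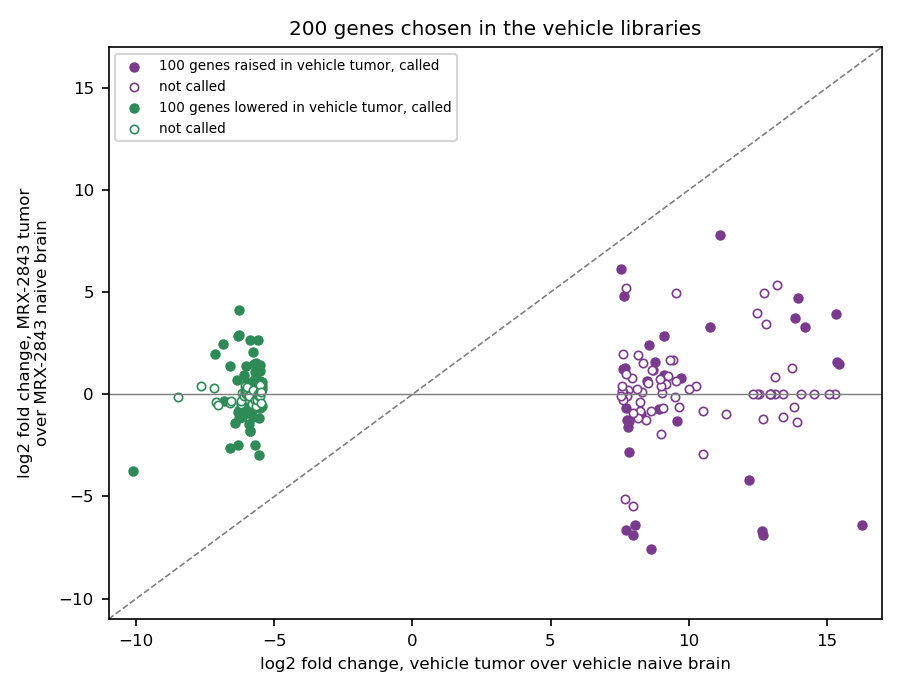
Log2 fold changes of 200 genes chosen in the vehicle libraries, with vehicle tumor over vehicle naive brain on the x axis and MRX-2843 tumor over MRX-2843 naive brain on the y axis; filled points are called and the dashed line marks equal change. The medians on the y axis are 0.03 and -0.07, against 9.10 and -5.90 on the x axis, and the fitted y values of genes with no counts in a group depend on the prior count.

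Genes that mark this tumor in vehicle mice showed the same in single values. Fgf15, a growth factor gene, had 121 and 131 CPM in vehicle tumor. It had 22 counts in MRX-2843 naive brain and none under the tumor label, at least 5.48-fold lower than in naive brain when the tumor group is set at 3 counts. That call was lost without either tumor library (adjusted p = 0.062 and 0.063). H19, an imprinted RNA, was at 1301 and 1301 CPM in vehicle tumor. Its values were 0.226 and 0.506 CPM in MRX-2843 naive brain against 1.78 and 0.776 under the tumor label (1.61 ± 0.36, adjusted p = 0.0041), a call lost without tumor library 1, in DESeq2 and without the vehicle tumor libraries (adjusted p = 0.059, 0.15 and 0.15). Igf2, the growth factor gene beside it, read 191 and 196 CPM with vehicle tumor and 0.211 and 0.472 under the MRX-2843 tumor label, where it was not called different from the 0.349 and 0.319 of naive brain. Pearson's r across 16489 genes, which are not independent replicates, was 0.994 within each MRX-2843 pair, 0.968 to 0.970 between the MRX-2843 groups, 0.975 to 0.976 between MRX-2843 tumor and vehicle naive brain, and 0.664 to 0.669 between MRX-2843 tumor and vehicle tumor. By these measures the RNA of the libraries labelled MRX-2843 tumor is close to that of naive brain, and they are called tumor-labelled in what follows.

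In edgeR's quasi-likelihood test 5935 of 24356 genes (24.4%) passed an adjusted p under 0.05 between the tumor-labelled and naive MRX-2843 libraries. Of these, 3027 (12.4% of genes tested) were higher in the tumor-labelled libraries and 2908 (11.9%) lower. With a change of at least 1 on the log2 scale as well, 772 (3.17%) were higher and 591 (2.43%) lower; the median over all genes tested was 0, and 58.9% of all genes moved by less than 0.5. Without regard to a test, both tumor-labelled libraries lay above both naive ones for 29% of genes and below both for 28.7%. Beside this, the naive groups of MRX-2843 and vehicle, which carry the same tissue label, differed at 5225 genes (21.5%), and the tumor-labelled libraries differed from vehicle naive brain at 5976 (24.5%; 11.4% higher and 13.1% lower). Vehicle tumor differed from vehicle naive brain at 14626 (60.1%), and the tissue difference itself differed between the treatments at 51.6% of genes (26.3% higher and 25.3% lower under MRX-2843). Since many directions turned with the choice of naive group, each list is also counted against vehicle naive brain: gene counts and folds are against MRX-2843 naive brain unless vehicle naive brain is named, and both comparisons share the tumor-labelled libraries. List counts are to be read beside the 12.4% higher and 11.9% lower among all genes, and those with few calls may lie near these shares. In bulk RNA, fewer cells of a type and less RNA per cell cannot be told apart.

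**Figure D2:**
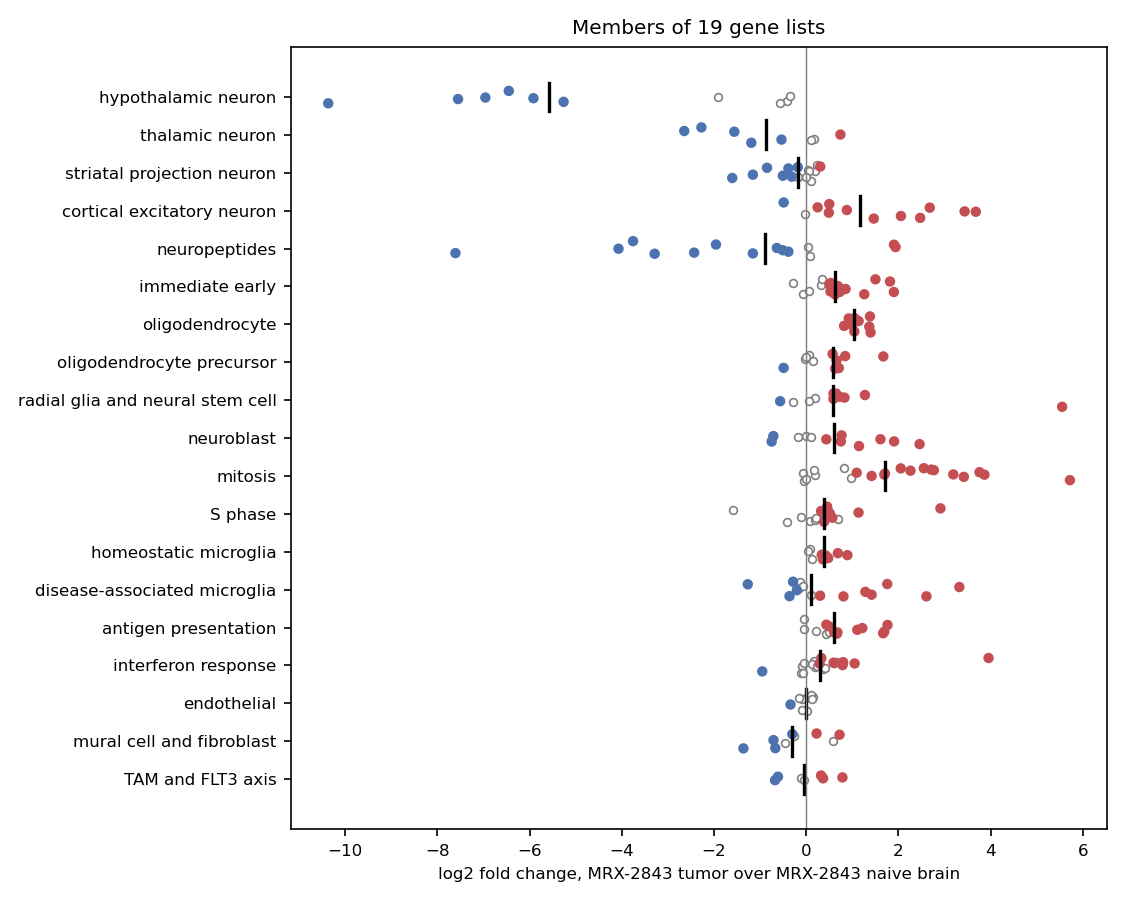
Log2 fold change of MRX-2843 tumor over MRX-2843 naive brain (x axis) for the tested members of 19 gene lists (y axis); filled points are called (red higher, blue lower), open points are not, and black bars are list medians. Hypothalamic genes lie far to the left (median -5.59), cortical, myelin and mitosis genes to the right (medians 1.17, 1.05 and 1.71), and endothelial genes at 0.

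The largest falls were of peptide hormone and other hypothalamic genes. Avp (vasopressin, chr2:130580620-130582554) had 96.3 and 85.2 CPM in the naive libraries and 0.492 and 0.472 in the tumor-labelled ones (-7.55 ± 0.36, adjusted p = 2.6e-09). Oxt (oxytocin, chr2:130576173-130577054), its neighbour on chromosome 2, went from 62.9 and 57.2 to 0.316 and 0.641 CPM (-6.96 ± 0.30, adjusted p = 1.1e-09). The naive libraries were high and the tumor-labelled ones near 0, with no overlap. Gal, the galanin precursor, fell from 9.31 and 11.4 to 0.0352 and 0.0675 CPM (-7.61 ± 0.98, adjusted p = 4.6e-05), and Pmch, the melanin-concentrating hormone precursor, fell too (-5.92). Hcrt, the orexin precursor of the lateral hypothalamus, fell by 5.26 (adjusted p = 2e-05). Sim1 and Otp are transcription factors needed for the peptide neurons of the hypothalamus. Sim1 had 354 counts in naive brain and 0 in the tumor-labelled libraries, at least 88.2-fold lower, and Otp 953 and 8 counts (adjusted p = 0.00047, and 0.19 in DESeq2).

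Of the 10 listed genes of hypothalamic neurons, 6 fell and none rose (median -5.59); Pomc, Agrp, Ghrh and Gnrh1 were not called. Their summed level was 169.9 to 186 CPM in MRX-2843 naive brain, 4.84 to 5.11 in the tumor-labelled libraries and 4.18 to 4.75 in vehicle naive brain. It was the MRX-2843 naive group that stood high: against vehicle naive brain the tumor-labelled libraries had a median of 0.07 over the list, with 1 member higher and none lower. For Avp the vehicle naive libraries read 0.373 and 0.477 CPM and for Oxt 0.258 and 0.0596. Other large falls had the same pattern: Agt, the angiotensinogen gene, expressed by astrocytes, went from 120.1 and 111 to 5.38 and 5.04 CPM (-4.47 ± 0.14, adjusted p = 4e-11) with 5.68 and 4.45 in vehicle naive brain, and Baiap3, from 196 and 171 to 11.4 and 10.6 CPM with 7.55 and 9.09. Dlk1, an imprinted Notch-family ligand, fell by 4.18 to 2.64 and 3.12 CPM, far below the 4897 and 4903 of vehicle tumor. Irs4 (-5.28), Arhgap36 (-5.08), Gpr101 (-4.09), Gbx1 (-4.07) and Nts, the neurotensin precursor (-4.07), completed the large falls. Unlike Avp and Oxt, Nts was also lower than in vehicle naive brain (-1.11, called), with 1.72 and 1.75 CPM against 3.82 and 3.69.

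Across the neuropeptide precursors 10 of 14 tested fell and 2 rose (median -0.90); against vehicle naive brain the numbers were 9 and 3. Cartpt fell by 3.76 and so did Tac2, the neurokinin B precursor (-3.29, adjusted p = 8.5e-10). Cck, the cholecystokinin precursor, abundant in cortex, rose from 52.7 and 50.6 to 191 and 195 CPM (1.90 ± 0.06, adjusted p = 3.7e-11), and Vip by 1.94. Vehicle naive brain was higher still for Cck, at 406 and 415 CPM. Markers of thalamus fell in 5 of 8 and rose in 1 (Synpo2, a rise lost without naive library 1 or tumor library 1); Slc17a6, the vesicular glutamate transporter of subcortical neurons, went from 39.9 and 41.2 to 5.77 and 7.18 CPM (-2.65 ± 0.26, adjusted p = 3.2e-06, and 0.1 in DESeq2). Tcf7l2 (-1.56) and Ntng1 (-1.19) fell with it. Set against vehicle naive brain, the thalamic list had 3 higher and 1 lower (median 0.02). Among 6 hippocampal markers, C1ql2 (-2.7010), Spink8 (-2.44) and Fibcd1 (-0.64) fell while Prox1, a dentate gyrus factor, rose by 0.93; against vehicle naive brain 1 was higher and none lower (median 0.25).

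Genes of cortical excitatory neurons were higher in the tumor-labelled libraries than in MRX-2843 naive brain: 10 of 12 members tested were called higher and 1 lower (median 1.17). Emx1, a transcription factor of the developing and adult cortex (chr6:85187438-85204462), was at 0.985 and 0.675 CPM in naive brain and 8.55 and 8.82 in the tumor-labelled libraries (3.43 ± 0.23, adjusted p = 7.4e-08). Slc17a7, the vesicular glutamate transporter of cortex, rose from 152 and 148 to 766 and 824 CPM (2.40 ± 0.05, adjusted p = 1.7e-12). Neurod6 (2.68) and Neurod2 (2.47), transcription factors of the same neurons, rose too. Both tumor-labelled libraries lay above both MRX-2843 naive libraries for each of these. Both also lay below vehicle naive brain, where Emx1 read 17.02 and 16.9 CPM and Slc17a7 1698 and 1671: against that group 11 of 12 members were lower and 0 higher (median -0.69). Other large rises went the same way, with levels between the naive groups: Hkdc1, a hexokinase family gene (4.44), Smim43 (4.13), Smoc2 (3.45), Prss12 (3.33) and Igfn1 (2.85, adjusted p = 0.074 in DESeq2). Dkkl1 had 0.308 and 0.937 CPM in MRX-2843 naive brain, 6.70 and 8.94 in the tumor-labelled libraries and 26.0 and 27.3 in vehicle naive brain. Serinc2 (3.61) and Abi3bp (3.39) rose as well. Of these, Hkdc1, Prss12, Igfn1, Serinc2 and Abi3bp were not called different from vehicle naive brain.

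Genes of striatal projection neurons were high in all 4 MRX-2843 libraries. Drd2, the D2 dopamine receptor, had 80.8 and 75.6 CPM in naive brain and 81.2 and 78.3 in the tumor-labelled libraries (0.03 ± 0.12, not called), and 10.8 and 9.76 in vehicle naive brain. Drd1 read 50.3 and 59.4 against 49.3 and 47.4 CPM and was not called either (-0.18 ± 0.18). Of 15 members 1 was called higher and 7 lower (median -0.18), with Penk, the enkephalin precursor (-0.39), Tac1, the substance P precursor (-1.16), and the transcription factor Six3 (-0.85) among the lower ones. Against vehicle naive brain all 15 were higher (median 2.28). The pan-neuronal genes moved unevenly: 7 of 12 fell, among them Nefl, a neurofilament (-1.11), and Gad2, a GABA synthesis enzyme (-1.40), while, against vehicle naive brain, 9 were lower and 1 higher. Snap25, of the synaptic release machinery, was at 1139 and 1183 against 1184 and 1126 CPM. The count of risers in that list is 1, Slc17a7, and 3 under DESeq2, its size factors, library totals, the stricter filter or halved counts. Of 5 cerebellar genes tested 1 fell, Cbln1 (-2.47), and Gabra6 was at 0 counts. Of 13 mid- and hindbrain genes, 7 were tested, with 1 higher and 1 lower, while Hoxb3, Hoxb5, Hoxc4 and Hoxa5 had no count in any MRX-2843 library. In the comparison with vehicle naive brain 1 cerebellar gene was lower and 1 mid- or hindbrain gene higher, with no other call. In the latter list Th, the dopamine synthesis enzyme, fell by 1.75. Slc6a5, a glycine transporter, had 0 and 64 counts, at least 28.5-fold higher, a call lost without any 1 of the 4 libraries (adjusted p of 0.073 to 0.27). Which region each library holds was not tested beyond these markers.

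**Figure D3:**
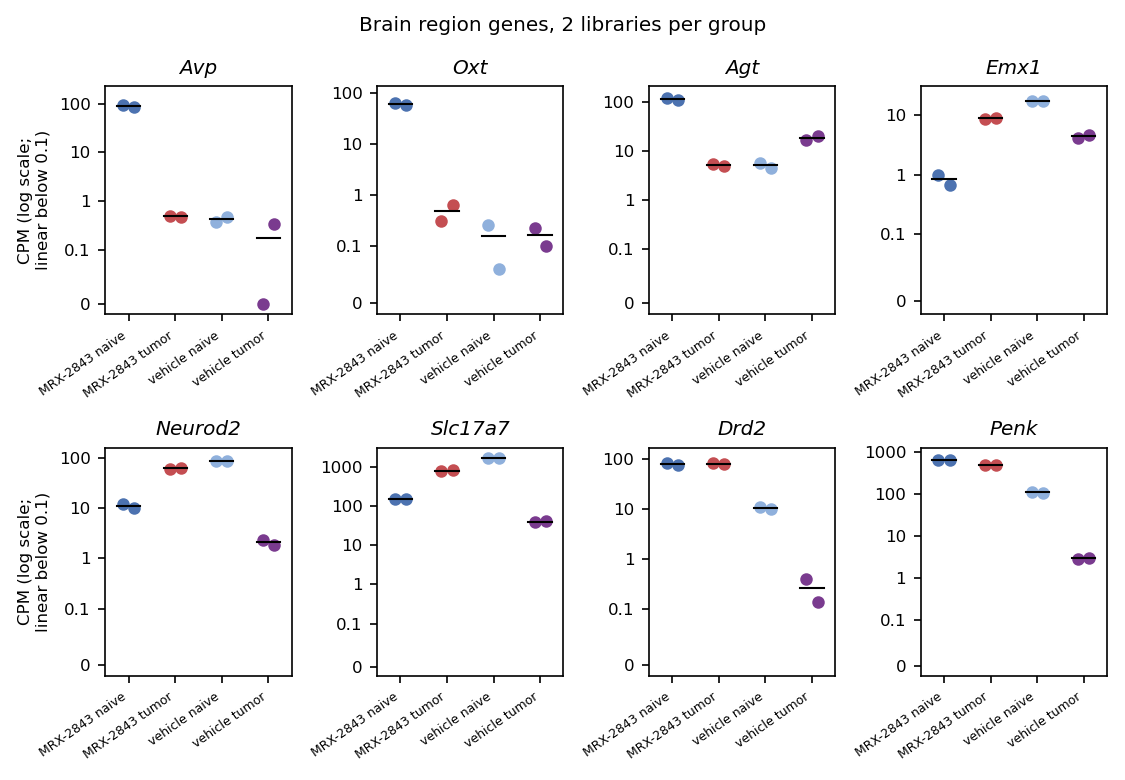
CPM (log scale, linear below 0.1) of 8 region genes in the 8 libraries; points are libraries and lines the means of 2. Avp, Oxt and Agt are highest in MRX-2843 naive brain among the 4 groups, Emx1, Neurod2 and Slc17a7 are lower there than in the tumor-labelled libraries, and Drd2 and Penk are higher in all MRX-2843 libraries than in vehicle ones.

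Immediate early genes, which neurons switch on within minutes of activity, rose with the cortical genes. Of 17, 12 were higher and none lower (median 0.63). Arc, a synaptic regulator, went from 28.8 and 29.0 to 81.5 and 82.1 CPM (1.5005 ± 0.08, adjusted p = 5.6e-09). Nr4a2 rose by 1.90 and Nr4a1 by 1.26, both nuclear receptors. Fos (-0.29) and Jun (-0.07) were not called. Against vehicle naive brain 2 of the 17 were higher and 5 lower (median -0.22); Arc there was at 53.7 and 52.4 CPM. Summed cortical marker levels of 474 to 476 CPM in MRX-2843 naive brain, 686 to 718 in the tumor-labelled libraries and 1143 to 1163 in vehicle naive brain moved with this list, with no marker at 0, and their part in it was not tested.

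Genes of cell division were higher in the tumor-labelled libraries than in either naive group. Of 21 mitosis genes 14 rose and none fell (median 1.71), against 16 risers (median 1.27) when vehicle naive brain was used. Many promoters of such genes hold a short element, the cell cycle homology region, TTTGAA, through which they are repressed in resting cells. The 300 bases from 250 before to 50 after the start site were read from RefSeq (GRCm38.p6), and 4 of genes with large rises are shown, each 5′ to 3′ on its gene's strand, with TTTGAA or its reverse complement TTCAAA in capitals. Top2a lies at chr11:99024140-99024439 (minus strand), Cdk1 at chr10:69352863-69353162 (minus strand), Ube2c at chr2:164769679-164769978 (plus strand) and Mki67 at chr7:135716330-135716629 (minus strand).
Top2a: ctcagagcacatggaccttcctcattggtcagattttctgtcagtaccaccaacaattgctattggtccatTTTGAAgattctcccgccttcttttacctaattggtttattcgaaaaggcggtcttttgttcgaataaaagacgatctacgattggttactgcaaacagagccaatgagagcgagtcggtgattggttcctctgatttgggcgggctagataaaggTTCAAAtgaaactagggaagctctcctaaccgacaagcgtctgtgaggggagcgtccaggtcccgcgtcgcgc
Cdk1: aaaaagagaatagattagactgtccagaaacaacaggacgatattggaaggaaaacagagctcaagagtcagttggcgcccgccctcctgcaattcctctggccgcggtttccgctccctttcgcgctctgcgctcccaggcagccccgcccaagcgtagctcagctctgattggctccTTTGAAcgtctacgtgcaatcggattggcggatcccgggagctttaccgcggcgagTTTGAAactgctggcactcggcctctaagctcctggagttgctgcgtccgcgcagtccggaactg
Ube2c: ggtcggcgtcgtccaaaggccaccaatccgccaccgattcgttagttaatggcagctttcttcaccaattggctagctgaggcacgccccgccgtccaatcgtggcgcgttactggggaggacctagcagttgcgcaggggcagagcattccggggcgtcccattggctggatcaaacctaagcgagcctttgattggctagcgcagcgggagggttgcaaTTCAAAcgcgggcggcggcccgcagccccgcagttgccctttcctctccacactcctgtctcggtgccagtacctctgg
Mki67: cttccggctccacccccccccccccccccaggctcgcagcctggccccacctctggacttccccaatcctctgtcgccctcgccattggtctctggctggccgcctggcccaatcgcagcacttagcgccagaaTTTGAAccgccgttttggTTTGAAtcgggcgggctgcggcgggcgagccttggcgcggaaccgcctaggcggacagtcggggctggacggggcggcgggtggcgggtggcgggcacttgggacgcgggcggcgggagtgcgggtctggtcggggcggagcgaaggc
The element was found on either strand in a promoter of 13 of the 18 mitosis genes that had one, 10 of them among the 12 that rose. Of all 32851 promoters, counted singly and not by gene, 17.9% held it. A match describes the letters only.

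Top2a, the topoisomerase of dividing cells, was at 0.164 and 0.150 CPM in naive brain and 9.51 and 6.95 in the tumor-labelled libraries (5.72 ± 0.35, adjusted p = 3.8e-08). Top2a levels with vehicle were 0.287 and 0.894 for naive tissue and 75.5 and 77.5 for tumor, so the tumor-labelled libraries lay above both naive groups and far below vehicle tumor. Mki67, the proliferation marker, went from 1.03 and 1.24 to 7.74 and 5.84 CPM (2.55 ± 0.19, adjusted p = 3.2e-07) with 74.3 and 75.1 in vehicle tumor. Cdk1, the mitotic kinase, read 0.0410 and 0.206 against 2.64 and 1.77 CPM (3.87 ± 0.37), and Ube2c, a ubiquitin carrier of the anaphase complex, 0.246 and 0.169 against 2.602 and 2.77 (3.76 ± 0.29). Aurka, Plk1 and Birc5, which also act in mitosis, were not called (-0.05, -0.06 and -0.01). The summed level of the list was 25.2 to 25.6 CPM in MRX-2843 naive brain, 63.2 to 71.4 in the tumor-labelled libraries and 500.1 to 504 in vehicle tumor.

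DNA replication genes rose in 8 of 18 cases (median 0.38), a count of 5 without naive library 1 or either tumor library and of 4 with the vehicle groups left out. With vehicle naive brain as the reference 5 were higher and none lower. Rrm2, a subunit of ribonucleotide reductase, went from 0.369 and 1.16 to 6.33 and 6.48 CPM (2.91 ± 0.29, adjusted p = 4e-06), Mcm5 of the replicative helicase rose by 1.13 and Pcna, the sliding clamp, by 0.32. In the D cyclin axis 8 of 12 rose and none fell, 5 without tumor library 1. Set against vehicle naive brain, 3 were higher and 2 lower (median 0.13). Ccnd2 rose from 30.1 and 31.6 to 80.2 and 80.5 CPM (1.38 ± 0.07, adjusted p = 2.9e-09), and the inhibitors Cdkn2c (1.40) and Cdkn1b (0.72) rose with it. Ccnd1, cyclin D1, went from 12.5 and 12.2 to 16.6 and 14.5 CPM (0.33 ± 0.09, adjusted p = 0.014), under the vehicle values of 21.6 and 18.5 (naive) and 254 and 252 (tumor). That call was lost without naive library 2 (adjusted p = 0.069), without tumor library 1 (0.15) and with only the 2 groups in the fit (0.092).

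Genes of neural stem cells and young neurons rose beside those of division. Thbs4, a thrombospondin made by stem-cell-like astrocytes of the ventricular wall (chr13:92751590-92794818), had 1.19 and 0.356 CPM in naive brain and 33.1 and 30.9 in the tumor-labelled libraries (5.55 ± 0.35, adjusted p = 5.2e-08). With vehicle it read 1.15 and 1.33 for naive tissue and 4.16 and 4.02 for tumor, so the tumor-labelled libraries held the highest level of the 4 groups. Of 11 radial glia and stem cell genes 7 rose and 1 fell (median 0.59), and 7 were higher and none lower against vehicle naive brain. Egfr, the receptor of activated stem cells, went from 8.70 and 9.57 to 16.1 and 14.2 CPM (0.72 ± 0.13, adjusted p = 0.0007), and the intermediate filament gene Vim rose by 0.83. Fabp7, a fatty acid carrier of radial glia, fell by 0.57. Sox2 (0.20) and Pax6 (0.07) were not called.

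Among 12 neuroblast genes 7 rose and 2 fell (median 0.59), and the falls, of Dlx5 and Dlx6, were both lost without naive library 2 or tumor library 1. Against vehicle naive brain 9 were higher and none lower. Igfbpl1 rose from 0.985 and 1.89 to 7.86 and 8.58 CPM (2.46 ± 0.27, adjusted p = 1.1e-05), Cd24a, a surface marker, by 1.61 and Sox4 by 1.14. Sp8, a factor of olfactory interneurons, went from 1.35 and 1.24 to 4.64 and 5.03 CPM (1.91 ± 0.25, adjusted p = 6e-05) and stood at 3.59 and 5.18 in vehicle naive brain. Of 12 ependymal genes 2 were called: Foxj1, the regulator of motile cilia (5.58 and 3.97 to 8.97 and 8.35 CPM, 0.87 ± 0.24, adjusted p = 0.018), and the dynein gene Dnah5 (1.09). Foxj1 lost its call without naive library 2 or either tumor library, and Dnah5 without either naive library or tumor library 1, which left 0 to 1 calls, while the fit of only the 2 groups called 5. Relative to vehicle naive brain 6 were higher and none lower. Of 23 motile cilia genes 3 rose, Rfx3 (0.46) and Tppp3 (0.35) among them, and Rsph9 fell by 0.69; the risers numbered 1 without naive library 1 or tumor library 1 and 6 in DESeq2, with 4 higher and 1 lower against vehicle naive brain. Of 10 choroid plexus genes 1 rose and 3 fell: Ttr, transthyretin, rose by 1.35 while Clic6 (-1.91) and Kl (-1.40) fell, the last lost without either naive library or tumor library 2, and the list's fallers numbered 1 without either naive library. Relative to vehicle naive brain 2 choroid plexus genes were higher and none lower (median 1.04). Levels of Ttr were 2.13 and 3.15 against 7.70 and 5.90 CPM.

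**Figure D4:**
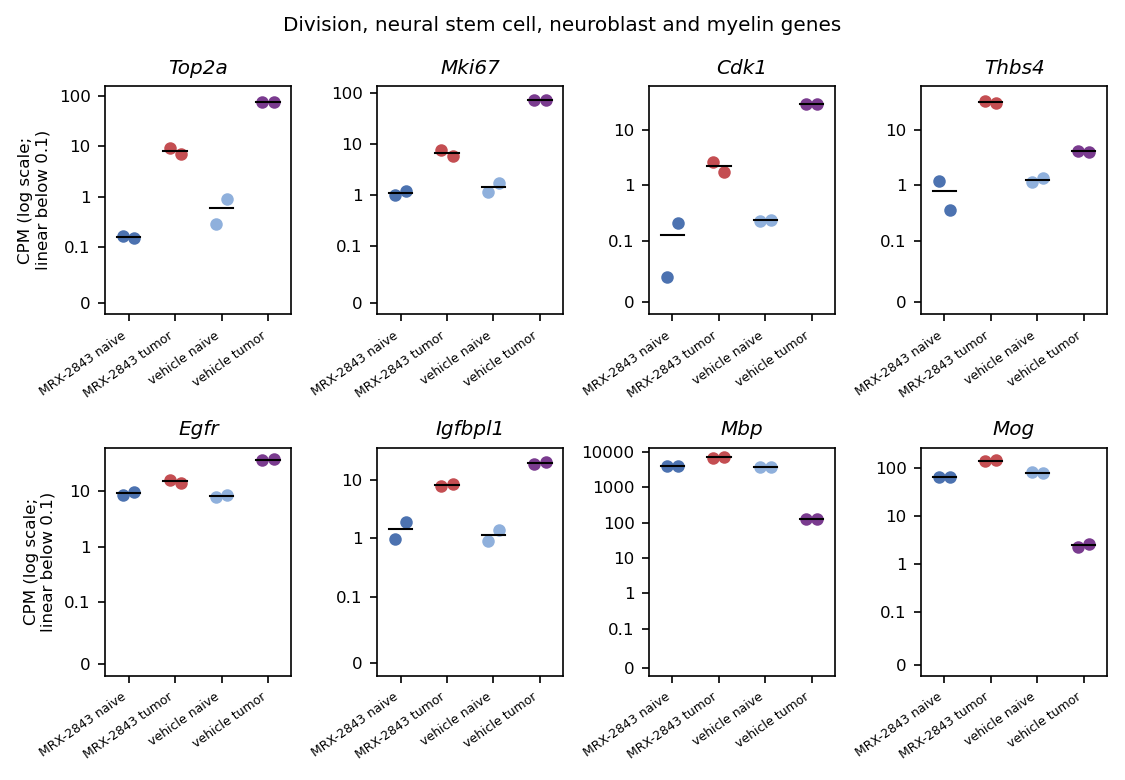
CPM (log scale, linear below 0.1) of 8 genes of division, stem cells, neuroblasts and myelin in the 8 libraries; points are libraries and lines the means of 2. Top2a, Mki67, Cdk1, Thbs4, Egfr and Igfbpl1 are higher in the tumor-labelled MRX-2843 libraries than in both naive groups, and Mbp and Mog are high in all groups but vehicle tumor.

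Myelin genes rose as a whole. All 10 oligodendrocyte genes tested were called higher, with log2 fold changes of 0.82 to 1.39, and all 10 were also higher against vehicle naive brain (median 0.91). Mbp, myelin basic protein, went from 4061 and 3895 to 6753 and 7302 CPM (0.82 ± 0.04, adjusted p = 2.4e-09), with vehicle values of 3672 and 3650.4 (naive) and 125 and 126 (tumor). Cldn11, of myelin tight junctions, rose by 1.38, Mobp by 0.93, and Mog, on the outer myelin surface, from 65.1 and 67.0 to 143 and 147 CPM (1.14 ± 0.07). Among 11 precursor genes 6 rose and 1 fell: Enpp6, of newly forming oligodendrocytes, by 1.67, Sox10 by 0.85 and Olig1 by 0.57, while Pdgfra (0.06) and Cspg4 (-0.04), which mark the precursors themselves, were not called. Relative to vehicle naive brain 9 precursor genes were higher and none lower. Astrocyte genes were split, 3 higher and 5 lower of 11 (3 lower on library totals and without naive library 2 or tumor library 1). The balance turned against vehicle naive brain, with 6 higher and 2 lower (median 0.14). Gfap, the astrocyte filament, went from 113.4 and 112.5 to 189 and 190.5 CPM (0.75 ± 0.04, adjusted p = 1.1e-08), against 2676 and 2735 in vehicle tumor, and Slc1a2, the glutamate transporter, rose by 0.67. Of 12 reactive astrocyte genes 2 rose and 2 fell, with Hspb1 (-0.68) among the latter, which numbered 4 with no filter or without either vehicle naive library; against vehicle naive brain 3 were higher and 3 lower.

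Antigen presentation genes were higher in the tumor-labelled libraries than in both naive groups. Of 15, 10 rose and none fell (median 0.61), and 12 were higher against vehicle naive brain (median 1.06). Class II genes share promoter boxes, among them the Y box, CTGATTGG. The same 300 bases are shown for H2-Aa, at chr17:34287774-34288073 (minus strand), and H2-Eb1, at chr17:34305617-34305916 (plus strand), as class II genes that rose, with the box in capitals (GRCm38.p6, RefSeq).
H2-Aa: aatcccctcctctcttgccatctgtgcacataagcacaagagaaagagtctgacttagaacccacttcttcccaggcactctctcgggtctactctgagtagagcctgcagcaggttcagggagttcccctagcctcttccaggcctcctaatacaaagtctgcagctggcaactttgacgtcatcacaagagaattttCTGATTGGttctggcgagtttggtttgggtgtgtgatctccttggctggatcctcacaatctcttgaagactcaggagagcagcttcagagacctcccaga
H2-Eb1: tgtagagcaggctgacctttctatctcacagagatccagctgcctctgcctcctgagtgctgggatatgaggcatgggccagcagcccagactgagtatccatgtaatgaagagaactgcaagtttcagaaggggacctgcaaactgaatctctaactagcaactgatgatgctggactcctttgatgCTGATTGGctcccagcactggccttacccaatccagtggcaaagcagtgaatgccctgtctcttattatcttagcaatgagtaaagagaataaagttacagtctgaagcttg
It or its reverse complement CCAATCAG was in a promoter of 7 of 11 genes of the list, 6 of the 8 that rose. Among all promoters, counted singly and not by gene, 4.10% held it. Of the 7 genes, H2-Aa and H2-Eb1 are class II genes, and H2-D1, H2-K1, H2-T23, Psmb9 and Tap1 are not. H2-Ab1, a class II beta chain, went from 2.75 and 3.13 to 9.71 and 10.5 CPM (1.76 ± 0.13, adjusted p = 2.3e-07), H2-Eb1 from 3.20 and 2.32 to 8.60 and 8.70 (1.69 ± 0.13) and H2-Aa from 4.02 and 1.87 to 9.11 and 8.26 (1.67 ± 0.25). With vehicle H2-Ab1 read 1.06 and 1.64 for naive tissue and 193 and 181 for tumor. Cd74, the invariant chain, rose by 1.22 to 32.1 and 34.3 CPM, B2m, the class I light chain, by 0.44, and H2-Q4, a class I gene with close relatives that may share reads, by 1.11. C4b, a complement gene with a near copy, C4a, went from 28.4 and 29.1 to 115 and 116 CPM (2.00 ± 0.06, adjusted p = 4.6e-11), with vehicle values of 21.5 and 18.2 (naive) and 2906 and 2955 (tumor).

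Homeostatic genes of microglia, which carry such molecules, rose as well. Of 10 homeostatic genes 7 were higher and none lower (median 0.39), and the count was the same against vehicle naive brain. Their summed level was 298 to 303 CPM in MRX-2843 naive brain and 390.3 to 393 in the tumor-labelled libraries, with no marker at 0. It moved with the antigen presentation genes between these groups. In vehicle naive brain it was much the same, at 293 to 294 CPM. Antigen presentation sums were lower there, at 218 to 219 CPM, than the 310 to 325 of MRX-2843 naive brain. The part of microglia in them was not tested. Cx3cr1, the fractalkine receptor, went from 39.0 and 39.2 to 55.4 and 53.4 CPM (0.48 ± 0.06, adjusted p = 4.2e-05) and Sall1, a microglial factor, rose by 0.89. Genes of the disease-associated state were split, 7 higher and 4 lower of 15 (median 0.10), with 4 higher when the vehicle tumor libraries or both vehicle groups were left out of the fit, and 7 higher and 3 lower against vehicle naive brain. Their summed level was lower in the tumor-labelled libraries, at 2528 and 2791 CPM, than the 3359 and 3222 of MRX-2843 naive brain. Vehicle naive brain had 2639 and 2739 CPM. Cd9 rose by 0.81 and Gpnmb by 1.28, while Spp1, osteopontin, fell from 7.69 and 9.48 to 3.57 and 3.68 CPM (-1.27 ± 0.10, adjusted p = 3.3e-07). Clec7a, the dectin-1 gene, had 18 and 82 counts (2.61 ± 0.43) and Cst7 6 and 46 (3.32 ± 0.55), calls lost with only the 2 groups in the fit (adjusted p = 0.065 and 0.1). Vehicle tumor held Spp1 at 1664 and 1738 and Gpnmb at 1057 and 1073 CPM.

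**Figure D5:**
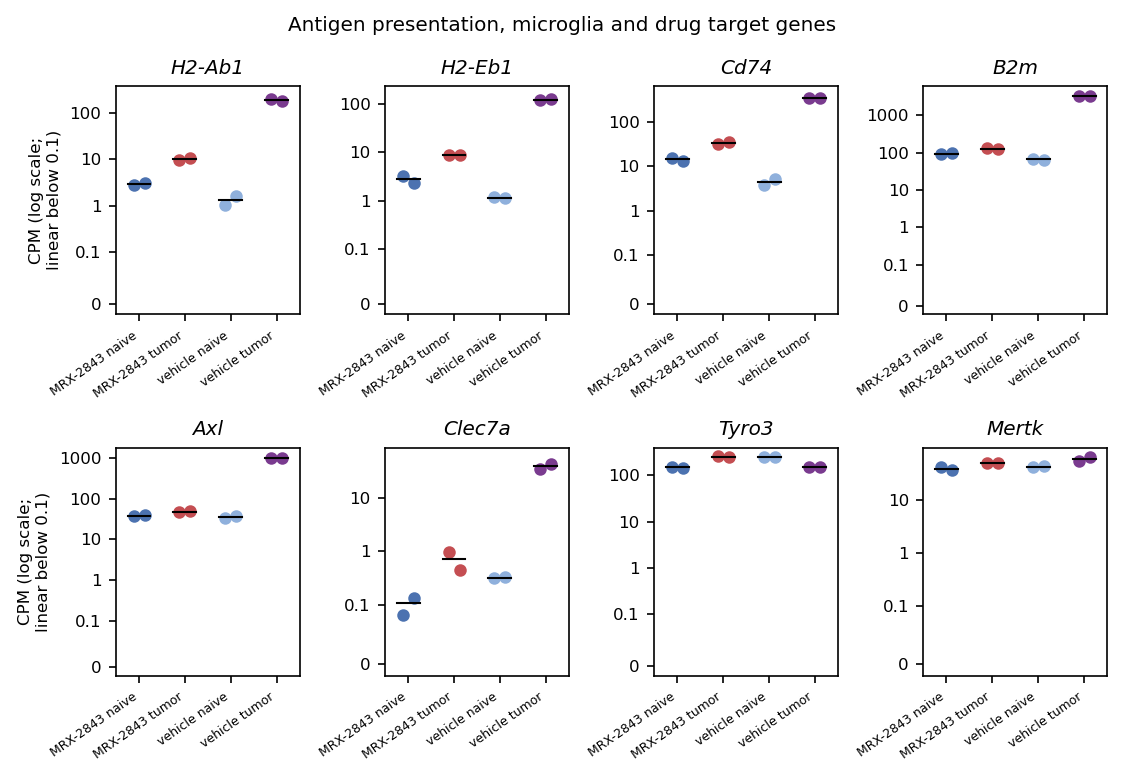
CPM (log scale, linear below 0.1) of antigen presentation, microglia and drug target genes in the 8 libraries; points are libraries and lines the means of 2. H2-Ab1, H2-Eb1, Cd74 and B2m lie above both naive groups and below vehicle tumor in the tumor-labelled libraries, Axl and Clec7a are far higher in vehicle tumor, and Tyro3 and Mertk stay within 147.3 to 260 and 36.8 to 64.8 CPM.

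Interferon response genes rose in 8 of 20 cases and fell in 1 (median 0.31), 4 and 0 when the vehicle tumor libraries or both vehicle groups were left out, and 7 and 0 against vehicle naive brain. Irf7, the interferon regulator, went from 1.48 and 2.29 to 3.90 and 4.35 CPM (1.05 ± 0.15, adjusted p = 0.00015) and Ifih1, an RNA sensor, rose by 0.80; vehicle tumor had Irf7 at 584 and 586. Oas3 had 2 and 26 counts, a ratio of 17.4 with a 95% counting interval of 4.36 to 151, and was not called with only the 2 groups in the fit. Of 10 T and NK cell genes 1 was higher and 2 lower (none lower with only the 2 groups in the fit, and 1 higher and 1 lower against vehicle naive brain): Cd3e had 26 and 0 counts and Cd3d 18 and 0, at least 6.48-fold and 4.48-fold lower, both lost without either tumor library. Cd4, which microglia can also express, rose by 0.78 to 26.2 and 30.5 CPM. The whole T and NK list summed to 27.6 and 31.2 CPM in these libraries. Its sums were 16.9 and 18.2 CPM in MRX-2843 naive brain but 4.02 and 3.49 in vehicle naive brain. Which cells held Cd4 was not tested. Of 7 B and plasma cell genes 2 rose and 1 fell, and 1 was higher and 2 lower against vehicle naive brain. Ms4a1 had no count in any MRX-2843 library, and Cd79a, of the B cell receptor, fell from 140 to 12 counts (-2.97 ± 0.73, adjusted p = 0.0076), lost without naive library 2. Ighm rose by 1.10, and Igkc had 23 and 39 counts and lost its call without naive library 2 or tumor library 1 and on halved counts. None of 3 neutrophil genes tested was called against either naive group (S100a9 with 18 and 6 counts), and Ly6g and Ngp had no count.

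Of 12 macrophage and monocyte genes 2 rose and 1 fell, all lost with only the 2 groups in the fit: Cd14 (0.67), lost without naive library 1, tumor library 1 or either vehicle tumor library; Plac8 (18 and 38 counts), lost without naive library 2 or tumor library 1; and Mrc1, the mannose receptor (-0.71), lost without any 1 MRX-2843 library or vehicle tumor library 2. Relative to vehicle naive brain 2 of these 12 were higher and 3 lower. Endothelial genes did not pass in 8 of 9 cases, and Vwf (-0.36) lost its call without naive library 2 or tumor library 1 and against vehicle naive brain, where none of the 9 was called. Among mural cell and fibroblast genes 4 of 9 fell (2 with the vehicle tumor libraries left out) and 2 rose, and 5 were lower and 1 higher against vehicle naive brain. Dcn, decorin of fibroblasts, went from 11.9 and 12.4 to 4.57 and 4.89 CPM (-1.36 ± 0.10, adjusted p = 3e-07) and Col1a1 fell by 0.71, while Pdgfrb, of pericytes, rose by 0.72. Matrix genes were split, 6 higher and 2 lower of 16 (4 lower with no filter or without naive library 2, and 7 higher and 2 lower against vehicle naive brain): Col6a1 rose from 157 and 153 to 385 and 398 CPM (1.34 ± 0.05) and Col5a1 by 1.49, while Sparc fell from 662 and 657 to 207 and 221 (-1.62 ± 0.04). Of 6 erythrocyte genes 2 fell (Hba-a1 -0.41, Hba-a2 -0.36, near copies of each other, the latter lost without naive library 1 or tumor library 1); against vehicle naive brain 5 were lower and 1 higher. Vehicle naive brain stood at 292 and 311 CPM for Hba-a1 against 16.4 and 18.8 in the tumor-labelled libraries.

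The drug's targets, their relatives and their ligands moved by less than 1 on the log2 scale, with 3 of 7 higher and 2 lower, and 1 higher and 1 lower against vehicle naive brain. Mertk (chr2:128698956-128802894) had 42.7 and 36.9 CPM in naive brain and 51.3 and 50.9 in the tumor-labelled libraries (0.37 ± 0.09, adjusted p = 0.0094), a call lost without naive library 2 (0.26, adjusted p = 0.11). Its values in vehicle were 41.9 and 43.7 in naive brain and 55.7 and 64.8 in tumor. Flt3 went from 10.7 and 12.9997 to 7.21 and 8.31 CPM (-0.61 ± 0.21, adjusted p = 0.045); the call was lost in DESeq2 (0.064), with its size factors, on library totals and without naive library 2, vehicle naive library 2 or either tumor library. Tyro3, the TAM receptor of neurons, rose from 149.9 and 147 to 259.9 and 252 CPM (0.78 ± 0.05, adjusted p = 7.2e-08), near the 247 and 255 of vehicle naive brain. Axl rose from 36.6 and 39.3 to 46.6 and 48.4 (0.32 ± 0.06, adjusted p = 0.00071), with 983 and 999.7 in vehicle tumor. The TAM ligand genes Gas6 and Pros1 were not called (-0.12 ± 0.09 and -0.06 ± 0.11), and Flt3l, the FLT3 ligand, fell by 0.68, lost without tumor library 2. RNA levels say nothing of kinase activity, which was not measured in these files.

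Of the fusion's partner genes, Zfta rose from 33.6 and 32.7 to 54.3 and 56.95 CPM (0.75 ± 0.06, adjusted p = 6.4e-07), against 287 and 289.9 in vehicle tumor, and Rela read 28.1 and 23.4 against 28.4 and 32.1 (0.24 ± 0.10, adjusted p = 0.097), called only without naive library 1 (0.37) and on halved counts among the alternatives. Among 8 genes listed as fusion targets 3 rose, Notch1 by 0.89, Arl4d by 0.69 and Ccnd1, and 1 fell; against vehicle naive brain 4 were higher and 1 lower. L1cam, a neural adhesion gene, was at 152 and 135 against 126 and 127 CPM (-0.18 ± 0.07, adjusted p = 0.073), called without naive library 2 (-0.26), without either vehicle tumor library and with no filter. Of 20 NF-kB targets 5 rose and 2 fell. Cxcl10 had 13 and 54 counts (2.42 ± 0.56, adjusted p = 0.0054), lost in DESeq2 and without naive library 2 or tumor library 2, and Ccl5 0 and 18, at least 8.03-fold higher (not called without the vehicle tumor libraries), while Sod2, a mitochondrial enzyme, fell by 0.36. The risers numbered 3 without naive library 2, 2 without tumor library 2 or with only the 2 groups, and 1 without the vehicle tumor libraries; against vehicle naive brain 5 were higher and 1 lower.

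Receptor tyrosine kinases rose in 12 of 28 cases and fell in 4 (median 0.27), and 14 were higher and 1 lower against vehicle naive brain. Epha4 rose from 32.2 and 35.9 to 72.6 and 68.2 CPM (1.04 ± 0.12, adjusted p = 1.5e-05), Fgfr2 by 0.78 and Ddr1, a collagen receptor, by 0.64; Ret, a receptor of neuronal growth factors, fell (-2.17). Genes induced by MAPK signalling rose in 6 of 12 cases and fell in 1: Etv5 by 0.78, Dusp6 by 0.76 and Spry2 by 0.61. Against vehicle naive brain none of the 12 was higher and 5 were lower; Etv5 read 63.5 and 58.2 CPM in the tumor-labelled libraries and 70.2 and 81.1 there. Cholesterol synthesis genes rose in 10 of 18 cases with none lower (median 0.28), Hmgcs1, an early enzyme of the pathway, by 0.36 and Idi1 by 0.53, and against vehicle naive brain 3 were higher and 3 lower. Myelin gene sums were 7608 to 7678 CPM in MRX-2843 naive brain and 14279 to 14746 in the tumor-labelled libraries, with no marker at 0. They moved with this list between these groups, but not across the vehicle groups. Vehicle naive brain had myelin sums of 7520 to 7590 CPM. Its cholesterol synthesis sums were 1065 to 1084, beside 1064 to 1077 in the tumor-labelled libraries. Vehicle tumor had 496 to 511 CPM for myelin and 1122 to 1148.5 for cholesterol synthesis. The part of myelin in the list was not tested.

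Among 18 genes of p53 signalling and cell death, 4 were higher and 2 lower, and 2 higher and 3 lower against vehicle naive brain. Ccng1 rose by 0.32, lost without naive library 1, Aen fell by 0.40, lost without naive library 1 or tumor library 1, and Phlda3 fell by 0.51; the risers numbered 1 without naive library 1 or tumor library 1 and 2 without naive library 2. Of 12 hypoxia and glycolysis genes 5 rose, 3 without naive library 1 or tumor library 2, and 1 fell; against vehicle naive brain 4 were higher and 4 lower. Ndrg1 went from 81.1 and 72.9 to 149.6 and 145 CPM (0.94 ± 0.07, adjusted p = 2.1e-07), Pdk1 rose by 0.45, lost without naive library 1, and Pgk1, a glycolytic enzyme, fell by 0.39. Mitochondrially encoded genes fell slightly, 9 of 13 (median -0.17), mt-Nd6 most among those named (-0.34) with mt-Nd2 (-0.21) and mt-Co2 (-0.20). All 37 mitochondrially encoded genes of the table, RNA genes included, took 17.8 and 18.5% of counts in MRX-2843 naive brain, 17.3 and 16.4% in the tumor-labelled libraries and 3.26 and 3.37% in vehicle tumor. Against vehicle naive brain 9 of the 13 were higher and none lower.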

How the data were processed

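RNA-seq libraries of mouse tissue labelled brain tumor or naive brain were analysed from the raw read counts per gene that the authors deposited. Per the submitters' processing notes, the tools were STAR 2.7.7a, featureCounts, Subread and SAMtools, and mm10 and hg38 are both named as builds, with no role or order; the annotation, strand setting and trimming are not given in the sources used here. Without a known strand setting, reads of overlapping genes on opposite strands cannot be told apart, and with a human build named, the treatment of human sequence is unknown. Groups were taken from the sample titles. Counts of all 8 libraries were fitted as 4 group means with edgeR 4.0.16 in R 4.3.3 (TMM, filterByExpr with a minimum count of 10, quasi-likelihood test, 4 residual degrees of freedom; the common biological coefficient of variation was 21.0%, and 25.3% and 21.5% in the MRX-2843 naive and tumor pairs alone). Calls have a Benjamini-Hochberg adjusted p under 0.05 over all genes tested. Fold changes are log2 values ± SE, the SE being the absolute value over the square root of F. The libraries of each MRX-2843 pair (naive, tumor) differed by more than counting noise. Chi-square per degree of freedom was 20.3 and 13.1, with medians over genes of 5.35 and 4.58. The mostly even low counts may raise these values, which do not tell separate animals from technical duplicates. The fitting code was tested on simulated counts. Tables came from pandas 2.3.3 under Python 3.11.15 (with NumPy 2.4.6), counting intervals from SciPy 1.17.1, plots from matplotlib 3.10.9. Coordinates are from GENCODE M21 on GRCm38, which held 52081 (94.0%) of the identifiers.

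The comparison and its 43 gene lists (25 of cell types, 18 of processes) were chosen with earlier results of these data known, and lists were given no test of their own. Genes were named by rule: the 12 largest rises and 12 largest falls among called genes whose groups did not overlap, with log2 CPM averaging 2 or more and no predicted or pseudogene symbol. Up to 3 called members per list followed, by adjusted p (or the most abundant one if none was called), and in every case H19, Fgf15, Xist, L1cam, Ccnd1, Zfta, Rela, Tyro3, Axl, Flt3 and Mertk. Another 19 genes (C4b, Mbp, Mog, Cdk1, Sp8, Egfr, Cd74, H2-Aa, B2m, Clec7a, Cst7, Drd1, Drd2, Sim1, Otp, Snap25, Gas6, Pros1, Igf2), and list members given with a fold change only, were chosen after their values were seen. Some genes that the rule names are not reported here, though list counts include them. Alternatives were DESeq2 1.42.0 as the test or its size factors, library totals, no filter, a stricter one (2 libraries with a CPM of 1 or more), a replicate block, only the 2 groups, no vehicle tumor libraries, a minimum log2 change of 1, no mitochondrially encoded genes, vehicle naive brain as the reference and leaving out each library in turn; dividing all counts by 2 was added after the data were seen, because most low counts were even.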

Additional observations from a re-analysis of the deposited data

Results flagged for a closer look

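The difference between tumor and naive brain itself differed between MRX-2843 and vehicle at 12563 of 24356 genes (51.6%) in edgeR's interaction test, 6401 higher under MRX-2843 and 6162 lower. The values are log2 differences of the 2 tissue contrasts, MRX-2843 minus vehicle, and each passed an adjusted p under 0.05; sex-linked RNA also differed between the treatments, and no cause was tested. Of the genes named, 140 by rule and 19 after their values were seen, 129 with more than 3 counts in every group passed. A further 9 passed with 3 or fewer counts in a group, where no value is given, and the sex-linked Xist is left out. Many were named for a call between the MRX-2843 groups, which is part of this contrast, so their share is not comparable with that of all genes.

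The tissue difference was lower under MRX-2843 for 74 of the 129. Below -4 were Dlk1 -16.37, H19 -13.75, Gbx1 -10.37, Col1a1 -9.63, Spp1 -9.03, Igf2 -8.97, Gal -7.07, Oxt -7.01, Pmch -6.53, Gpnmb -6.41, Irf7 -6.34, Agt -6.34, Avp -6.25, Dcn -6.16, Cxcl10 -6.13, H2-Q4 -5.74, Sparc -5.54, Hcrt -5.41, H2-Ab1 -5.35, Igkc -5.25, C4b -5.20, B2m -5.19, Six3 -5.14, Cd74 -5.01, H2-Eb1 -5.01, H2-Aa -4.86, Tcf7l2 -4.81, Axl -4.48, Vim -4.38, Clec7a -4.31, Ifih1 -4.17. Nearer to 0 were Pros1 -3.65, Cd79a -3.56, Gfap -3.49, Vwf -3.38, Ccnd1 -3.32, Flt3l -3.25, Mki67 -3.13, Cdk1 -3.08, Cd14 -2.87, Cd9 -2.86, Hspb1 -2.73, Cdkn2c -2.61, Sox10 -2.59, Notch1 -2.52, Col5a1 -2.33, Irs4 -2.33, Mrc1 -2.26, Ddr1 -2.13, Cx3cr1 -1.94, Zfta -1.82, Pdgfrb -1.72, Phlda3 -1.69, Rsph9 -1.68, Mcm5 -1.64, Igfbpl1 -1.60, Rela -1.51, Rrm2 -1.46, Egfr -1.44, Pcna -1.37, Sall1 -1.35, Ube2c -1.27, Sox4 -1.16, Fabp7 -1.16, Aen -1.11, Cd24a -1.11, Baiap3 -1.06, Dusp6 -0.99, Etv5 -0.90, Gas6 -0.85, Cdkn1b -0.65, Olig1 -0.55, Ighm -0.44, Pgk1 -0.31.

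It was higher under MRX-2843 for 55. Above 4 were Nr4a2 4.29, Nefl 4.34, Arc 4.38, Serinc2 4.55, Penk 4.83, Drd1 5.10, Tac1 5.15, Drd2 5.30, Emx1 5.41, Snap25 5.61, Mbp 5.69, Mog 6.18, Cck 6.62, Mobp 7.03, Dkkl1 7.72, Slc17a7 7.81, Neurod2 7.85, Prss12 8.20, Neurod6 8.55, Hkdc1 8.63, Igfn1 9.17, Smim43 10.42. Nearer to 0 were Hba-a1 0.36, Hba-a2 0.40, Col6a1 0.43, Sod2 0.75, Cd4 1.05, Hmgcs1 1.05, Pdk1 1.28, Nr4a1 1.46, Tyro3 1.4970, L1cam 1.51, Fgfr2 1.56, Tac2 1.59, mt-Co2 1.95, mt-Nd6 1.96, Gad2 2.06, Rfx3 2.34, Ttr 2.46, Ndrg1 2.46, Prox1 2.59, mt-Nd2 2.6044, Epha4 2.6967, Cldn11 2.86, Tppp3 2.88, Smoc2 2.93, Abi3bp 2.97, Dnah5 3.16, Slc1a2 3.21, Cbln1 3.26, Arl4d 3.40, Th 3.43, Enpp6 3.68, Thbs4 3.83, Slc17a6 3.97.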

How the results depend on the processing

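The counts of 3027 higher and 2908 lower genes kept within 1.5 times under every alternative but the minimum log2 change of 1, which gave 772 and 591; the range over libraries left out was 2445 to 3216 and 2221 to 3174. Higher genes made up 46.6 to 56.9% of calls, and no scaling moved the median of all genes by more than 0.04. The replicate block gave 2946 and 2813 (12113 for the interaction, against 12563) and lost the call of Slc6a5. Without the vehicle tumor libraries 12 named genes lost their call, not all of them marked above. With only the 2 groups in the fit 11 did. Same-numbered MRX-2843 libraries did not deviate together (r = -0.0914 across 13280 genes). That value cannot tell whether the numbers pair the libraries, since a small shared effect would not show. The median log2 fold change of 100 genes raised in vehicle tumor was 0.03 and became 0.0471 with DESeq2 size factors, 0.0525 on library totals, 0.338 in DESeq2, 0.0332 with no filter, 0.0424 with the stricter filter, 0.0592 with the replicate block, 0.189 with only the 2 groups, 0.264 without the vehicle tumor libraries, 0.0332 without mitochondrially encoded genes, 0.0546 on halved counts, 0.281 against vehicle naive brain and 0 to 0.131 with a library left out. The median log2 fold change of 100 genes lowered in vehicle tumor was -0.07 and became -0.0478, -0.0377 and -0.0483 under the first 3 of these, -0.458 against vehicle naive brain and -0.0743 to -0.0281 with a library left out. Vehicle naive brain was part of the contrast that chose both lists. The medians against that group may therefore be shifted by the choice of genes and are no independent check. Genes with no count in any MRX-2843 library stand at 0 in the full fit. They are filtered out with only the 2 groups, so that median is over fewer genes. The causes were not tested.

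Against vehicle naive brain 47 named genes had the other sign or, for Cd3d and Fgf15, a value of 0. Of the 47, 28 were called there and 19 were not. The values of all 47, called or not, were Hkdc1 -0.36, Smim43 -0.86, Dkkl1 -1.77, Smoc2 -1.09, Emx1 -0.96, Prss12 -0.63, Igfn1 -0.74, Avp 0.18, Oxt 1.57, Pmch 2.17, Arhgap36 0.89, Agt 0.038, Dlk1 1.45, Gbx1 1.05, Baiap3 0.41, Slc17a7 -1.08, Gad2 0.20, Tac1 1.71, Penk 2.19, Six3 3.06, Neurod2 -0.51, Neurod6 -1.22, C1ql2 0.56, Tcf7l2 0.77, Clic6 2.40, Gpnmb -0.77, Cd3d 0, Igkc -1.19, Vwf 0.18, Rfx3 -0.36, Pcna -0.00101, Sparc 0.42, Ccnd1 -0.37, Epha4 -0.23, Etv5 -0.32, Dusp6 -0.36, Nr4a2 -0.94, Hmgcs1 -0.18, Ccng1 -0.20, Pdk1 -0.26, Cck -1.09, mt-Nd2 0.21, mt-Co2 0.0473, Fgf15 0, Drd1 2.29, Pros1 0.26, Igf2 -0.0869. Other changes of direction were of genes not called: Drd2 -0.019 without naive library 2; Igf2 -0.019 without naive library 2, -0.63 without tumor library 2; Pros1 0.019 without tumor library 1; S100a9 5.03 without naive library 1; Snap25 0.018 with DESeq2 size factors, 0.028 on library totals, 0.018 in DESeq2, 0.011 with the stricter filter, 0.0042 without vehicle tumor libraries, 0.0055 on halved counts, 0.02 without naive library 2, 0.036 without tumor library 2. With a library left out these ranged from -0.019 to 0.0763 (Drd2), -0.63 to 0.52 (Igf2), -0.13 to 0.019 (Pros1), -2.79 to 5.03 (S100a9) and -0.0442 to 0.036 (Snap25). Depth limits Cd3d, Cd3e, Ccl5, Fgf15, Oas3 and S100a9, with 26 or fewer counts in each MRX-2843 group.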
